A study of Mus musculus with 4 samples.

Results

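The genes described here encode adhesion proteins and secreted cargo of megakaryocytes and platelets: Thbs1, Selp, Vwf, Pf4, Ppbp, Itga2b, Itgb3, Gp9, Gp1bb and Gp6. They were chosen by symbol, with their values in the comparison below already known, to set Thbs1 and Selp beside core platelet genes. Of these 10 symbols, 8 have a row in the deposited table of 16673 genes, and Gp1bb and Gp6, which have none, are not analysed here. The 6 genes other than Thbs1 and Selp are called the core genes. RNA was sequenced from lineage-negative (Lin–) bone marrow cells, which remain once cells bearing mature lineage markers are removed, of mice aged 2 months. The 2 libraries labelled cKO came from Tie2+/cre; Tet3F/F mice, and the 2 labelled control from Tet3F/F mice, so both groups carry the floxed Tet3 alleles and only the first carries Cre. Tie2, also named Tek, is active in endothelial cells and in early blood cells, so Cre driven by it is not restricted to megakaryocytes. Below, cKO and control name libraries by these labels.

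Megakaryocytes are the large marrow cells that shed platelets, and they arise from progenitors shared with the red cell lineage or directly from stem cells. At a wounded vessel, platelets are tethered when the GPIb-IX-V complex binds von Willebrand factor on exposed collagen. They are then activated, aggregate through the fibrinogen receptor αIIbβ3 and release adhesive proteins and chemokines from their alpha granules. Several of these genes are also used elsewhere: P-selectin and von Willebrand factor are stored by endothelial cells, thrombospondin is made by monocytes and endothelial cells, and Itga2b and Vwf are transcribed in some stem cells.

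Promoter sequences from RefSeq (build GRCm38.p6) were found for 5 of the 8 genes: Selp, Pf4, Ppbp, Itga2b and Gp9. The 250 bases before the transcription start are shown for Selp, which was higher in both cKO libraries, and for Itga2b, Gp9 and Pf4, which were all highest in control replicate 2. They lie at chr1:164115014-164115263 on the plus strand for Selp, chr11:102469884-102470133 on the minus strand for Itga2b, chr6:87777820-87778069 on the plus strand for Gp9 and chr5:90772185-90772434 on the plus strand for Pf4. Each is written 5′ to 3′ on its gene's strand, and capitals mark the letters GATAA (the core of the GATA factor motif) and GGAAG (the core of the ETS factor motif), or their reverse complements TTATC and CTTCC.
Selp: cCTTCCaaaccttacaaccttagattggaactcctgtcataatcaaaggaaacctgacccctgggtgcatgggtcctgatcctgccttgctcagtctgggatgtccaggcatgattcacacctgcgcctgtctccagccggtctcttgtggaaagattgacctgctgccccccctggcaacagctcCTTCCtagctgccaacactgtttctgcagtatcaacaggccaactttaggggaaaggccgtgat
Itga2b: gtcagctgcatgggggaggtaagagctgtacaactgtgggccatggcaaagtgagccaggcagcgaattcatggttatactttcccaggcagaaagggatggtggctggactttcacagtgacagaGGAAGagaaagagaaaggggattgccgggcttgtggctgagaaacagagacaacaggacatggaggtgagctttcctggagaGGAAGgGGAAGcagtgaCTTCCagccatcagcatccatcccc
Gp9: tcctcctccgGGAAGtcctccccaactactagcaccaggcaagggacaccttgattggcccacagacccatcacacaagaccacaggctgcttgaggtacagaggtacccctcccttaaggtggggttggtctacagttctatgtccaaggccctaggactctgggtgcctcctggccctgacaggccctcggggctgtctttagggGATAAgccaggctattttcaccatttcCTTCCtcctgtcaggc
Pf4: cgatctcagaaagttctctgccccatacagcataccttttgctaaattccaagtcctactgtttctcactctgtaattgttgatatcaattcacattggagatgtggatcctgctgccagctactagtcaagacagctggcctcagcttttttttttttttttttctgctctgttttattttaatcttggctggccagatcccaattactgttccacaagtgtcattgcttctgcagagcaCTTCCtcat

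GATAA, on either strand, stood in the Gp9 window alone among the 5, from 43 to 39 bases before the start. It is in 22.6% of the 32851 promoter windows of this length. GGAAG stood in all 5 windows, with 4 matches for Itga2b, 2 each for Selp, Gp9 and Ppbp and 1 for Pf4, and it is in 64.1% of all windows, so it does not set these genes apart. The RUNX motif letters TGTGGT were matched in the Gp9 window (14.0% of all windows hold them). TATAAA was matched 2 times in the Ppbp window (12.4% of all windows). TGANTCA, with any base at N, is a looser form of the NF-E2 and AP-1 motif, which has G or C there. It was matched once in Selp (TGATTCA) and once in Ppbp (TGAATCA), and 6.75% of all windows hold it. Neither match has G or C at N, so neither is the motif itself. Of all these matches, none overlapped another. A match describes letters in a window and is not a measured binding site, and these windows come from another build than the mm39 build of the reads.

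Levels are given as normalized counts, that is reads of a gene divided by a size factor for its library. The libraries held 28845037 and 30020188 reads for cKO and 39199593 and 46673855 for control, and each of the 8 genes had at least 20 reads in every library. Tet3 itself had 6400 and 5084 normalized counts in cKO and 5056 and 6593 in control (log2 fold change -0.02, SE 0.22). The floxed exons are not named in the labels, and this count spans all exons, so it does not check the genotype. Xist stood at 87442 and 48951 in cKO, against 5.54 and 9.57 in control, while the Y-linked gene Ddx3y had 0 reads in both cKO libraries, against 3158 and 3672 normalized counts in control. The cKO libraries thus carried female transcripts and the control libraries male ones, and genotype and sex cannot be told apart in any value below. Control replicate 2 stood apart from the others at 96.2 on a first principal component holding 56.9% of the variance, where the other 3 lay between -43.2 and -10.9. Reads of 13 mitochondrial genes made up 8.16% of its total, against 1.26% and 0.989% in the cKO libraries and 1.09% in control replicate 1, and the part of this in the values below was not tested. In bulk RNA, fewer cells of a type and less RNA per cell cannot be told apart.

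Thbs1 and Selp were both higher in each cKO library than in each control library, by more than 3-fold on average. Of the 6 core genes, Itgb3 alone was also higher in each cKO library, by less, and 5 had a log2 fold change below 0. That count rests on control replicate 2, without which 4 of the 6 were above 0 and 2 below. Because the genes were chosen with this comparison known, their fold changes are a description and carry no test. All 8 passed the filter of a mean of at least 10 normalized counts. None of the 8 was called by limma with Benjamini-Hochberg adjustment over all 16598 genes tested, where 0.0723% of genes were called at an adjusted p under 0.05, and 3 of the 8 had an unadjusted p under 0.05 (6.1% of all genes). On reads recovered from the deposited values, edgeR called none of the 8 (0.0723% of all genes) and DESeq2 called Thbs1 and Selp (0.645% of all genes).

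Thbs1 encodes thrombospondin 1, an adhesive glycoprotein released from alpha granules that binds CD36 and CD47 and can activate latent TGF-β. It had 1449 and 1919 normalized counts in cKO replicates 1 and 2, and 533 and 429 in control replicates 1 and 2. The lower cKO library thus lay well above the higher control library. The means were 1684 ± 332 in cKO and 481 ± 73.3 in control (SD, n = 2 each), a 3.48-fold higher level in cKO (1.80 ± 0.25 as log2 fold change ± SE). All fold changes are cKO minus control on the scale of log2(normalized count + 1). Leaving out single libraries moved the Thbs1 value between 1.60 and 2.00.

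Selp encodes P-selectin, a receptor held in alpha granules and moved to the surface on activation, where it binds PSGL-1 on leukocytes. It had 383 and 284 normalized counts in cKO, and 92.3 and 102 in control. Here too the groups did not overlap, although the replicates ran the other way from Thbs1, with cKO replicate 1 the higher of its pair. The means were 333 ± 70.1 in cKO and 97.2 ± 6.91 in control (SD, n = 2 each), a 3.37-fold higher level in cKO (log2 fold change 1.75, SE 0.36). Leaving out single libraries moved it between 1.54 and 1.97.

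**Figure D1:**
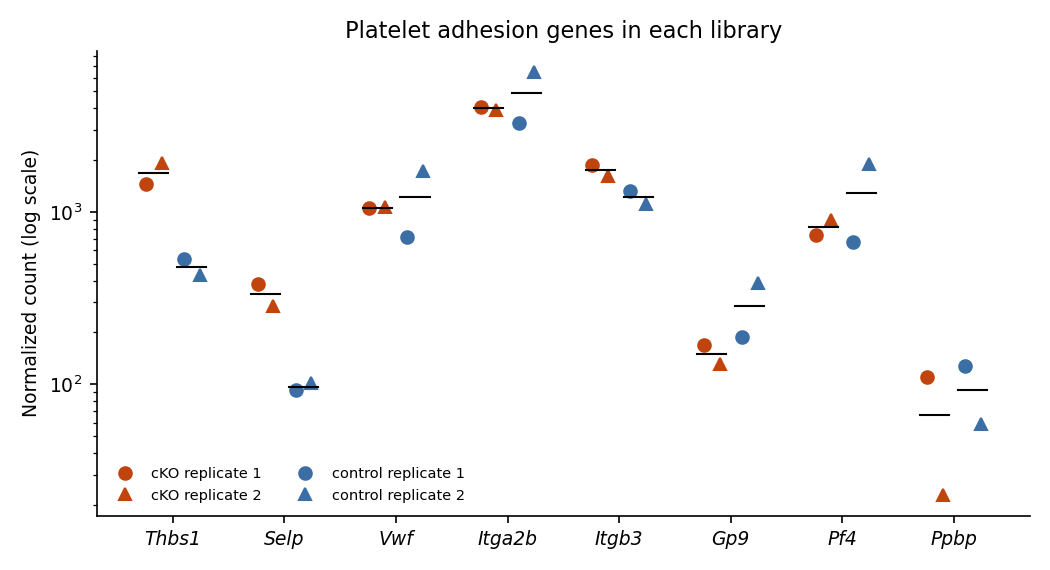
Normalized counts (log axis) of the 8 genes in each library, cKO in orange and control in blue, circles for replicate 1 and triangles for replicate 2, with bars at the group means (n = 2). Thbs1, Selp and Itgb3 have both cKO points above both control points, and in Vwf, Itga2b, Gp9 and Pf4 control replicate 2 is the highest point.

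Vwf encodes von Willebrand factor, the multimeric protein that bridges collagen and platelet GPIb. It had 1051 and 1067 normalized counts in cKO, and 716 and 1734 in control. Both cKO libraries lay between the 2 control libraries, the control pair differed by 2.42-fold, and the log2 fold change was -0.07 (SE 0.39). Without control replicate 2 the log2 fold change was 0.56, and without control replicate 1 it was -0.71.

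Itga2b encodes integrin αIIb (CD41), which pairs with the β3 subunit to form the fibrinogen receptor of platelets. It had 4073 and 3904 normalized counts in cKO, and 3264 and 6487 in control (log2 fold change -0.21, SE 0.31). The cKO pair was tight and again lay inside the control range. Without control replicate 2 the value was 0.29, and without control replicate 1 it was -0.70.

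Itgb3 encodes the β3 subunit itself, which also pairs with αV outside platelets. It had 1861 and 1623 normalized counts in cKO, and 1329 and 1107 in control. It was the only core gene with both cKO libraries above both control libraries, at 1742 ± 168 in cKO and 1218 ± 157 in control (SD, n = 2 each; log2 fold change 0.52, SE 0.21). Its value lay between 0.39 and 0.65 with each library left out. Across the 8 genes, 3 had non-overlapping groups with cKO higher (Thbs1, Selp and Itgb3; 19.2% of all genes tested) and 1 with cKO lower (Gp9; 19.5% of all genes tested).

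Gp9 encodes glycoprotein IX, a small subunit of the GPIb-IX-V receptor for von Willebrand factor. It had 169 and 132 normalized counts in cKO, and 187 and 385 in control (log2 fold change -0.84, SE 0.43). Both cKO libraries were below both control libraries, but cKO replicate 1 and control replicate 1 were close, and without control replicate 2 the value was -0.32.

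Pf4 and Ppbp, neighbours on chromosome 5, encode the alpha granule chemokines platelet factor 4 (CXCL4) and pro-platelet basic protein (CXCL7), and their patterns differed. Pf4 had 733 and 896 normalized counts in cKO, and 669 and 1902 in control (log2 fold change -0.48, SE 0.45). Control replicate 2 was 2.84-fold above control replicate 1, and without it the log2 fold change was 0.28, against -1.23 without control replicate 1. Ppbp had 110 and 23.0 normalized counts in cKO, and 127 and 59.0 in control (log2 fold change -0.77, SE 0.79). In Ppbp the second replicate was the lower of each pair, by 4.78-fold in cKO and 2.16-fold in control, and cKO replicate 2 held only 20 reads of it. Its value ran from -1.87 without cKO replicate 1 to 0.33 without cKO replicate 2. Tubb1, the β-tubulin of platelets, was also lowest in cKO replicate 2, at low normalized counts of 33.9 and 6.89 in cKO and 27.7 and 34.3 in control. It was named after its values were seen, and Pf4 was instead higher in cKO replicate 2 than in cKO replicate 1. So were 12 of 20 surface receptor genes, 12 of 21 alpha granule genes and 7 of 16 cytoskeleton genes, from the lists described below. The same held for 6 of 19 transcription factor and cytokine signalling genes and for 8 of 25 platelet signalling genes. The median log2 difference, cKO replicate 2 minus cKO replicate 1, was -0.009 over these 5 lists together and 0.005 over all genes tested. In cKO replicate 2 the 4 haemoglobin genes took 0.00358% of reads, against 0.0447% in cKO replicate 1 and 0.0349% and 0.115% in control replicates 1 and 2. Whether red cell RNA bears on the Ppbp values was not tested.

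**Figure D2:**
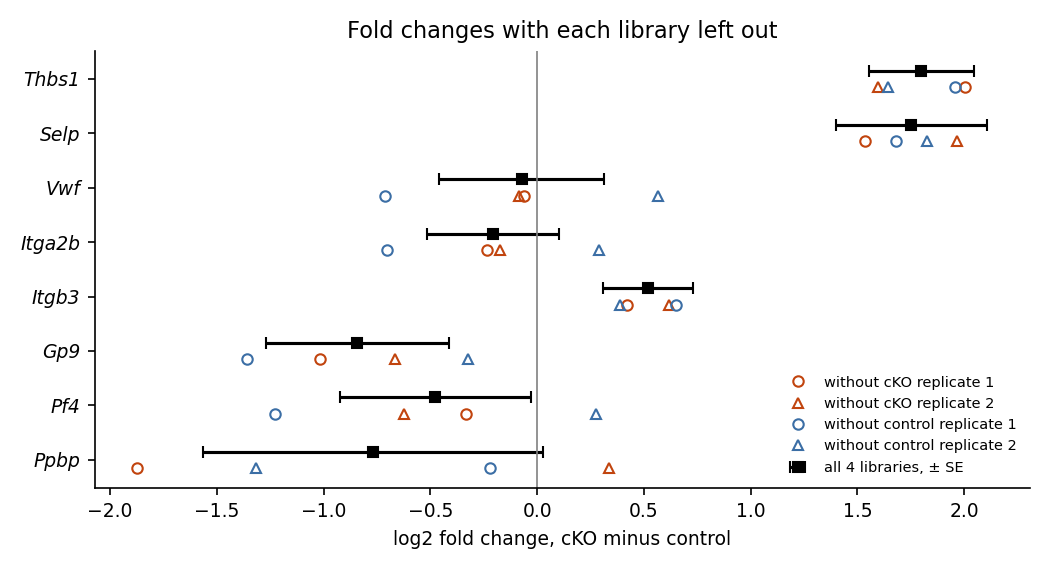
Log2 fold change, cKO minus control, of each gene over all 4 libraries (black squares, bars ± SE) and with 1 library left out (open symbols). Thbs1 and Selp stay between 1.54 and 2.00, whereas Vwf, Itga2b and Pf4 change sign without control replicate 2 and Ppbp without cKO replicate 2.

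The median log2 fold change of the 6 core genes was -0.34, against 0.01 over all genes tested, and it was 0.28 without control replicate 2. The median over the 8 genes was -0.14. Between the control replicates, Vwf, Pf4, Itga2b and Gp9 were higher in replicate 2 by 2.42-, 2.84-, 1.99- and 2.06-fold. Itgb3 and Thbs1 were higher in control replicate 1 instead, by 1.20- and 1.24-fold, and Selp differed by 1.11-fold. Distances between log2 profiles, each centred on its own mean over the 4 libraries, were 0.25 for Vwf and Itga2b, 0.47 for Vwf and Pf4, 0.67 for Itga2b and Gp9 and 0.67 for Thbs1 and Selp. Between Itga2b and its partner Itgb3 the distance was 1.15, between Thbs1 and Itga2b 2.23 and between Selp and Itga2b 2.07. Itgb3 lay between these sets, at 1.25 from Vwf, 1.28 from Selp and 1.35 from Thbs1. Ppbp was far from each other core gene, at distances of 2.00 to 2.57.

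Ratios within a library do not depend on the size factors. Per 100 reads of Itga2b there were 35.6 and 49.1 reads of Thbs1 in cKO, and 16.3 and 6.62 in control. For Selp there were 9.40 and 7.27 per 100 Itga2b reads in cKO, and 2.83 and 1.57 in control. Both genes were thus higher relative to Itga2b in each cKO library, and the control pair was more spread for the ratio than for the level. Vwf kept a nearly constant ratio, with 25.8 and 27.3 in cKO and 21.9 and 26.7 in control. Pf4 had 18.0 and 23.0 in cKO and 20.5 and 29.3 in control, and Gp9 had 4.16 and 3.38 in cKO and 5.74 and 5.94 in control. Itgb3 had 45.7 and 41.6 in cKO, and 40.7 and 17.1 in control, so control replicate 2 alone stood low. Against Itgb3 in place of Itga2b, Thbs1 had 77.9 and 118 reads per 100 in cKO, and 40.1 and 38.8 in control. Selp had 20.6 and 17.5 per 100 Itgb3 reads in cKO, and 6.95 and 9.22 in control.

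**Figure D3:**
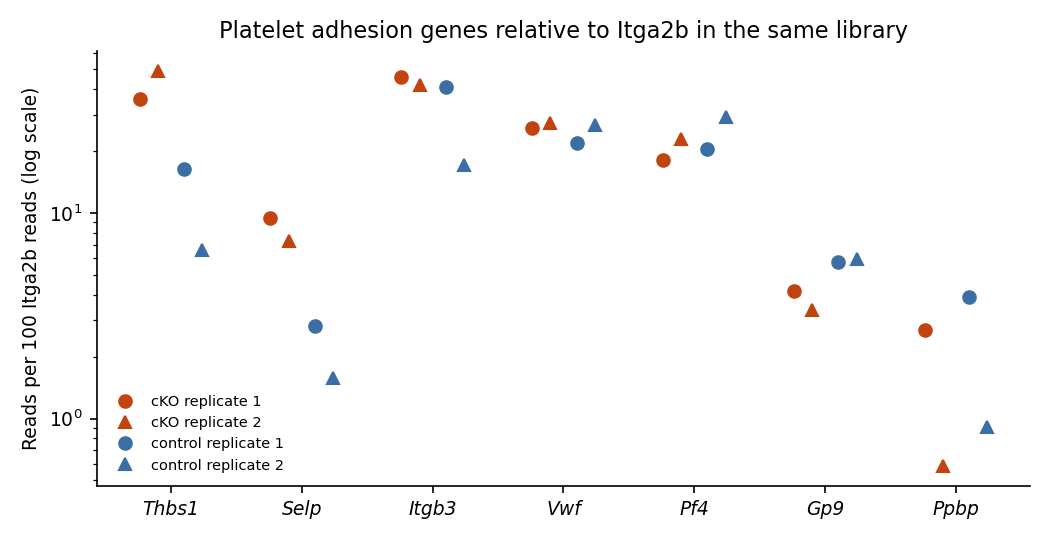
Reads of 7 genes per 100 reads of Itga2b in the same library (log axis), cKO in orange and control in blue, circles for replicate 1 and triangles for replicate 2. Thbs1 (35.6 and 49.1 in cKO, 16.3 and 6.62 in control) and Selp are higher in both cKO libraries, while Vwf stays between 21.9 and 27.3.

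Levels of different genes can be set side by side only per length, here as normalized counts per kilobase of exon (union of exons in GENCODE M21, matched by symbol). In cKO the order was Pf4 (1130 ± 160), Itga2b (731 ± 21.9), Itgb3 (295 ± 28.5), Thbs1 (277 ± 54.7), Gp9 (171 ± 29.8), Selp (75.5 ± 15.9), Vwf (65.9 ± 0.73) and Ppbp (61.3 ± 56.6; SD, n = 2 each). Itgb3 and Thbs1 overlapped there, as did Selp, Vwf and Ppbp, while the other neighbours did not. In control the order was Pf4 (1783 ± 1209), Itga2b (894 ± 418), Gp9 (325 ± 159), Itgb3 (206 ± 26.5), Ppbp (86.1 ± 44.7), Thbs1 (79.2 ± 12.1), Vwf (76.2 ± 44.8) and Selp (22.0 ± 1.56). Overlap was found between Pf4 and Itga2b, between Gp9 and Itgb3 and among Ppbp, Thbs1 and Vwf. Selp was below the other 7 genes in both control libraries, and in cKO it lay among Vwf and Ppbp.

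Other genes of platelet biology were taken as 5 lists that leave out the 8 genes, with 101 genes in the table. None of the 101 was called by limma (0.0723% of all genes), and 4 had an unadjusted p under 0.05 (6.1% of all genes). EdgeR called none (0.0723% of all genes) and DESeq2 called Cd226 alone (0.645% of all genes). In 18 of them both cKO libraries were above both control libraries (19.2% of all genes tested) and in 14 both were below (19.5%). Their median log2 fold change was 0.05, against 0.01 over all genes. Without control replicate 1, limma called Gata1, Gfi1b and Vav3, where it called 2.38% of all genes.

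Among 20 surface receptor genes, 12 had a log2 fold change above 0 and 8 below, with a median of 0.03. Cd226, an adhesion receptor of platelets, T cells and natural killer cells, had the smallest p. It had 758 and 473 normalized counts in cKO, and 161 and 199 in control (1.74 as log2 fold change, SE 0.34), and its adjusted p was 0.41 by limma and Benjamini-Hochberg. P2rx1, an ATP-gated channel, had 889 ± 37.4 in cKO and 498 ± 47.2 in control (SD, n = 2 each; 0.84, SE 0.23). The integrin genes Itga6 (0.44, SE 0.19) and Itga2, a collagen receptor subunit (0.65, SE 0.38), followed. Neither these nor Cd226 and P2rx1 passed. The partners of Gp9 in its receptor were named after their values were seen. Gp1ba had 202 and 148 normalized counts in cKO, and 130 and 243 in control, and Gp5 had 325 and 434 in cKO, and 343 and 779 in control. In both, control replicate 2 was the highest library, as in Gp9.

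Among 21 alpha granule genes, 11 were above 0 and 10 below, with a median of 0.03. Vamp8, which encodes a protein of granule fusion, was at -0.59 as log2 fold change (SE 0.26), and Gas6, a ligand of TAM receptors, at -0.67 (SE 0.35). Clu, a secreted chaperone (0.85, SE 0.44), and Nbea, a relative of the alpha granule gene Nbeal2 (1.56, SE 0.79), lay on the other side, and none of these passed. Nbeal2 itself, which is needed to form alpha granules, had 0.19 (SE 0.21). Mmrn1, multimerin of alpha granules, had 438 and 408 normalized counts in cKO, and 236 and 546 in control, so its control libraries enclosed its cKO libraries as in Vwf. Nbeal2 and Mmrn1 were named after their values were seen.

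Of 19 transcription factor and cytokine signalling genes, 9 were above 0 and 10 below, with a median of -0.01. The range, from -0.56 to 0.40, was narrow beside the values of Thbs1 and Selp. Mef2c (0.40, SE 0.19), Mafg, a partner of NF-E2 (-0.34, SE 0.18), Gabpa, an ETS factor (0.29, SE 0.20), and Jak2, a kinase of cytokine receptors (0.27, SE 0.19), had the smallest p and did not pass. Gata1, the factor of the erythroid and megakaryocyte lineages, had 2020 and 1565 normalized counts in cKO, and 1369 and 5005 in control. Fli1, an ETS factor of megakaryocytes, had 3047 and 3281 in cKO, and 3170 and 2434 in control. Both genes were named after their values were seen, and their groups overlapped. Of the 101 genes, 11 were at least 2-fold higher in control replicate 2 than in control replicate 1, namely Gata1, Gfi1b, Zfpm1, Tal1, Ldb1, Gp5, Clec1b, Treml1, Esam, Mmrn1 and Dok2. This is 10.9% of them, against 11.0% of all genes tested.

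Of 25 signalling genes, 18 were above 0 and 7 below (median 0.14), and of 16 cytoskeleton genes 10 were above 0 and 6 below (median 0.05). Gnaq, the G protein subunit behind several platelet receptors, was at 0.63 as log2 fold change (SE 0.25), Prkcq, protein kinase C theta, at 0.66 (SE 0.31), the phosphoinositide kinase gene Pik3cg at 0.51 (SE 0.29) and Ptgs1, cyclooxygenase 1, at 0.36 (SE 0.21). Parvb, β-parvin (-0.72, SE 0.30), Tuba4a (-0.46, SE 0.23), Pdlim1 (-0.30, SE 0.21) and Actn1 (0.40, SE 0.33) led the cytoskeleton list. No gene of either list passed.

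**Figure D4:**
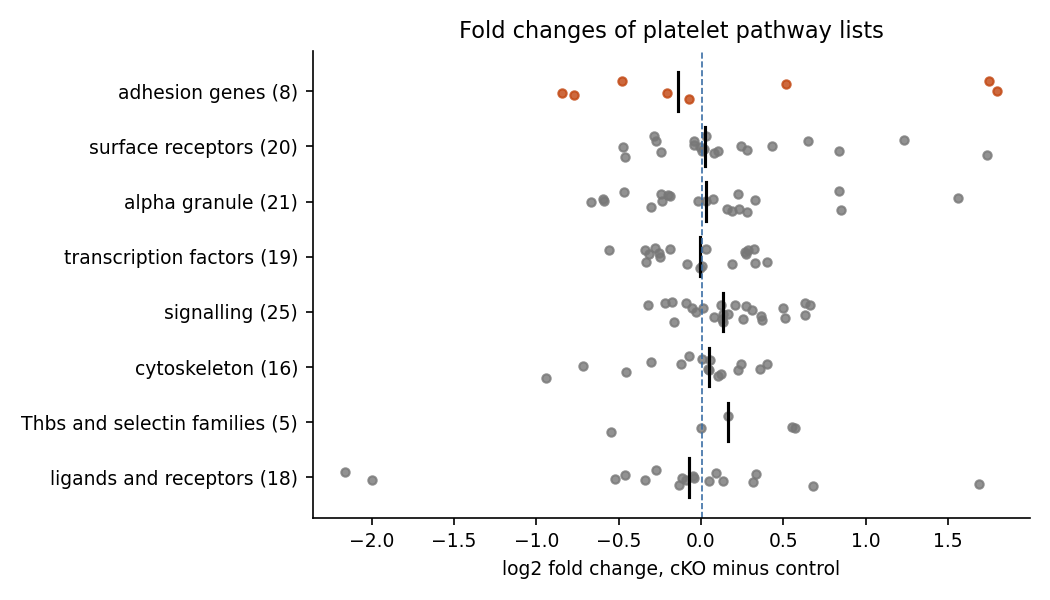
Log2 fold change, cKO minus control, of each gene in the platelet lists (1 point a gene, number tested in brackets), with black bars at the list medians and a dashed line at the median of all genes tested, 0.01. Thbs1 and Selp lie at 1.80 and 1.75, and Cd226 (1.74) and Cxcr3 (1.69) are nearest to them.

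The relatives of Thbs1 and Selp were less far from 0. As log2 fold changes, Thbs2 was at 0.00 (SE 0.69), Thbs3 at 0.57 (SE 0.91) and Comp, the fifth thrombospondin, at -0.54 (SE 0.60), all with group means of at most 53.2 normalized counts. Sele, the endothelial E-selectin gene of the same cluster as Selp, had 94.6 and 64.3 in cKO, and 64.6 and 43.1 in control (0.56, SE 0.52). None of these 4 passed, and the difference between them and Thbs1 or Selp was not tested.

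Of 18 genes for ligands and receptors of these proteins, 7 were above 0 and 11 below. Limma called none (0.0723% of all genes), while DESeq2 called Cxcr3, Col1a1 and Col1a2 (0.645% of all genes). Selplg, which encodes the P-selectin ligand PSGL-1, had 10726 and 15611 normalized counts in cKO, and 14615 and 10127 in control (0.09, SE 0.27). The thrombospondin receptors Cd36 (-0.13, SE 0.46) and Cd47 (-0.09, SE 0.19) were also near 0. These 3 were named after their values were seen. Cxcr3, whose human product binds platelet factor 4, had 656 and 505 in cKO, and 181 and 175 in control (1.69, SE 0.29), with an adjusted p of 0.32 by limma and Benjamini-Hochberg. Cxcr2, the receptor of the chemokine cut from the Ppbp product, had 0.68 (SE 0.33). The type I collagen chains Col1a1 (2279 ± 1443 in cKO and 9183 ± 1545 in control) and Col1a2 (1948 ± 1281 in cKO and 6888 ± 253 in control), which bind von Willebrand factor, were lower in both cKO libraries and did not pass (SD, n = 2 each; log2 fold changes -2.16, SE 0.41, and -2.00, SE 0.42).

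Other cells of the Lin– fraction could hold Thbs1 or Selp transcripts, so markers of 8 other cell types were read in the same libraries. Summed endothelial markers stood at 12631 and 11578 normalized counts in cKO, and 9828 and 10705 in control, with 9 of 15 genes above 0 and a median log2 fold change of 0.15. Among them Kdr had 126 and 175 in cKO, and 57.2 and 41.5 in control (1.59, SE 0.47), while Cdh5, the vascular cadherin, had 224 and 66.6 in cKO, and 95.1 and 47.9 in control. Both cKO libraries were above both control libraries in 5 of the 15 genes (19.2% of all genes tested). Besides Kdr and Pecam1 these were Tek (0.91, SE 0.41), Flt4 (1.66, SE 0.93) and Tie1 (0.42, SE 0.22). Flt4 had only 6.38 normalized counts in control replicate 2. Both were below in 1 gene, Cldn5 (-1.11, SE 0.87; 19.5% of all genes tested). The groups overlapped in Ramp2 (-1.35, SE 1.13). They also overlapped in Emcn, Eng, Plvap, Stab2, Egfl7 and Robo4, whose log2 fold changes lay between -0.26 and 0.15. The endothelial sum was higher in both cKO libraries, and Pecam1, which other blood cells also express, made up 5192 and 4228 of it in cKO, and 4222 and 2922 in control. Summed stem cell markers were also higher in both, at 40715 and 38754 in cKO, and 31869 and 31773 in control, with 10 of 13 genes above 0 (median 0.33). Most of that sum came from Kit (0.24, SE 0.19), Cd34 (0.39, SE 0.22) and Flt3 (0.45, SE 0.19). Other progenitors also express these genes, so the sum does not stand for stem cells alone. The 3 genes below 0 were Procr (-0.003, SE 0.51), Mecom (-0.18, SE 0.45) and Pdzk1ip1 (-0.46, SE 0.49). Monocyte and macrophage markers overlapped between the groups, at 121173 and 192879 in cKO, and 284060 and 123790 in control, with 7 of 16 above 0 (median -0.01).

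Neutrophil markers had 5 of 13 genes above 0 (median -0.24), although Mmp9 was at 488 and 353 normalized counts in cKO, and 77.6 and 73.4 in control (2.44, SE 0.36). Eosinophil markers had 10 of 10 above 0 (median 1.54) and basophil and mast cell markers 8 of 9 (median 0.45), and in both lists the summed level of 1 cKO library lay between those of the control libraries. Erythroid markers had 1 of 12 above 0 (median -1.09), with sums of 60327 and 30683 in cKO, and 41395 and 121882 in control. Stromal markers had 3 of 12 above 0 (median -1.11), with sums of 6649 and 10394 in cKO, and 22357 and 21641 in control. No marker of the 8 lists that is in the table was at 0 in any library. Limma called none of the 99 (0.0723% of all genes), and 20 had an unadjusted p under 0.05 (6.1% of all genes). EdgeR also called none (0.0723% of all genes). DESeq2 called 5 (0.645% of all genes), with Mmp9 higher and Col1a1, Col1a2, Sparc and Bglap lower. The part of these cells in the Thbs1 and Selp values was not tested.

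The genes most like Thbs1 and Selp over the 4 libraries were sought among 11800 genes with a mean of at least 50 normalized counts, by the distance between centred log2 profiles. Nearest to Thbs1 were Lrp11 (0.20), Kdr (0.24), Mreg (0.29), Hectd2 (0.40) and Bpifc (0.52). Nearest to Selp were Cxcr3 (0.15), Upk1b (0.21), Cd226 (0.21), Zfp449 (0.23) and the immunoglobulin segment Ighv9-4 (0.26). The mean profile of the 6 core genes joins unlike profiles, as Ppbp lay 2.00 to 2.57 from each other core gene. That mean, which need not follow any single core gene, was closest to Hcst (0.06), Micall2 (0.07), Trak2 (0.08), Trmo (0.09) and Cenpk (0.09). With 4 libraries such nearness is a description of these samples.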

How the data were processed

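The authors deposited 1 signal per gene and library, read counts scaled by a library size factor (normalized counts), per the file headers. The submitters' processing notes name Trim Galore 0.6.7, STAR 2.7.9a, featureCounts, DESeq2 and SAMtools, with build mm39. Settings, annotation and strandedness are not stated there. Columns named WT were taken as the control samples with the same number. Every value was a whole multiple of 1 read (100% within 0.1 read), so whole reads were recovered.

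The main fit used limma 3.58.1 in R 4.3.3 on log2(value + 1), with trended empirical Bayes, for the 16598 genes whose mean was 10 or more. Two-sided p-values were adjusted by Benjamini-Hochberg, with calls at an adjusted p under 0.05; for single values, 2 against 2 libraries allow no exact permutation p under 0.33. Alternatives were pseudocounts of 0.5 and 10, no filter or a mean of 50, TMM rescaling, a replicate block, single libraries left out, edgeR 4.0.16, and DESeq2 1.42.0, both on recovered reads. The steps were tested on simulated data. The series' design text gives 2 mice for each genotype, and replicates differed beyond counting noise (chi-square over its degrees of freedom was 36.4 in cKO and 288 in control).

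The genes and lists were chosen with earlier results of these data known. From each other list the up to 4 genes with the smallest p were named, and the 5 nearest by profile, predicted genes left out; a few items are not reported. Exon lengths and promoters came from GENCODE M21 and RefSeq (GRCm38).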

Additional observations from a re-analysis of the deposited data

How the results depend on the processing

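The Thbs1, Selp, Itgb3 and Gp9 fold changes kept their direction under all 12 alternatives, and Vwf, Pf4, Itga2b and Ppbp each changed sign under 1. The median of the 6 core genes, -0.34, lay between -0.71 and 0.28 when single libraries were left out (0.28 without control replicate 2). The number of genes called, 12, was 107 with DESeq2 on the recovered reads and 18 to 392 when single libraries were left out. The 392 calls, without control replicate 1, rest on control replicate 2 as the lone control, assumed to vary like the other libraries. Of 210 genes in the other lists limma called 0 (0.0723% of all genes), and 25 had an unadjusted p under 0.05 (6.1% of all genes). For the next counts, DESeq2 called 0.645% of all genes, and limma 2.38% without control replicate 1, which had the most calls. DESeq2 called 7, and leaving out each library gave 2 to 17. The Thbs1 log2 fold change was 2.00 and 1.60 without cKO replicates 1 and 2, and 1.96 and 1.64 without control replicates 1 and 2. That of Pf4 was -0.33 and -0.62 without cKO replicates 1 and 2, and -1.23 and 0.28 without control replicates 1 and 2. The replicate block called 8 genes and none of the 8 platelet genes. Same-numbered libraries were not treated as paired in the main fit, because the replicate numbers mark no stated shared litter or batch. The correlation of their deviations was -0.07 over 16598 genes. It rests on 1 replicate difference per group and cannot show whether a litter or batch was shared. The causes were not tested.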
